A study of Mus musculus with 8 samples.

Results

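The 10 genes described here encode transcription factors that set or keep the identity of the lung epithelium: Nkx2-1, Foxa1, Foxa2, Gata6, Sox9, Sox2, Mycn, Cebpa, Foxp2 and Klf5. They were taken by symbol from a table of 19150 genes, where each had 1 row, and all 10 were among the 18164 genes that passed the filter on low counts. The tissue was E17.5 lung from mouse embryos on a C57BL background, dissected free of trachea, bronchi and oesophagus. Mutants expressed a constitutively active TGF-β receptor 1 and the controls are labelled only as such. The labels place the activation in the lung epithelium and do not give the promoter or Cre line that drives it. Mutant males, control males, mutant females and control females had 2 libraries each, here numbered 1 and 2 as in the labels. Because whole lungs were sequenced, fewer cells of a type and less RNA per cell cannot be told apart in any value below.

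These factors act at different places and times in the branching lung. Nkx2-1 marks the lung field in the foregut and later drives surfactant and secretory genes, with the pioneer factors Foxa1 and Foxa2 and the zinc-finger factor Gata6. Sox9 and Mycn mark the dividing progenitors at the distal tips of the branches, and Sox2 marks the proximal epithelium that gives the airways. Cebpa and Klf5 are used as alveolar and airway cells mature, and Foxp2 is a distal epithelial repressor that works with Foxp1 and Foxp4. Several of the 10 are used by other cells as well: Sox9 by cartilage, Sox2 by glia, Gata6 by muscle and endothelium, and Cebpa by macrophages.

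Each library held 17561012 to 20243205 reads in genes, and the scaling factors between libraries lay between 0.975 and 1.02. The rank correlation across genes was 0.988 to 0.991 between libraries of the same group. Separate animals are not stated in the labels, and the p-values therefore reflect the spread between libraries, which could be technical. Tgfbr1 itself, the gene of the activated receptor, averaged 87.8 ± 7.45 CPM (read counts scaled to library size) in mutants and 87.6 ± 8.21 CPM in controls (SD, n = 4 each), and so does not check the genotype labels. Epithelial RNA was present in all libraries, with Epcam at 2593 to 4905 reads and Sftpc, the type 2 cell surfactant protein, at 89406 to 165058 reads. Libraries with the same number deviated together from their group means, least so between mutant and control males (r = 0.180). The sample titles give the number alone and name no litter or batch. Values with that number as a block, a choice that rests on these same data, are given beside the printed results whose call they change.

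Nkx2-1 was the most abundant of the 10 per length of transcript, and Sox2 the least. On the authors' deposited RPKM scale the mean over the 8 libraries was 86.6 ± 9.90 for Nkx2-1 and 2.88 ± 0.87 for Sox2 (SD over 8 libraries of all groups). Between them lay Klf5 at 29.8, Cebpa at 21.3, Gata6 at 21.2, Foxa1 at 20.9, Sox9 at 13.0, Foxa2 at 7.07, Foxp2 at 4.14 and Mycn at 4.02 RPKM. That order depends on the gene length used. In 74.6% of 14080 genes with several transcripts, the deposited length was within 1% of the exon lengths added over all transcripts, and in 0.9% it was within 1% of the merged exons. Per kilobase of merged exons (GENCODE M21), Nkx2-1 stood at 154 ± 18.7 CPM, Cebpa at 38.7 ± 6.48, Foxa1 at 20.1 ± 2.42 and Foxa2 at 17.47 ± 1.05. On the same scale Sox9 stood at 13.0 ± 3.59, Gata6 at 10.5 ± 0.62, Foxp2 at 10.2 ± 2.12, Klf5 at 9.90 ± 3.04, Mycn at 7.16 ± 2.79 and Sox2 at 2.89 ± 0.89. By merged exons Nkx2-1 and Cebpa were each clear of the next gene in every library, and from Foxa1 to Sox2 the range of each gene over the libraries overlapped that of its neighbour. Klf5 moved most between the scales, since its deposited length was 0.33 of its merged exons, whereas that of Foxa2 and of Foxp2 was 2.47 times theirs.

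How much a gene varied between the 8 libraries also separated the 10. The highest library was 1.15 times the lowest for Gata6 and 1.19 times for Foxa2. It was 1.47 to 1.58 times the lowest for Nkx2-1, Foxa1 and Cebpa, 2.03 times for Foxp2 and 2.29 times for Sox9. Sox2, Klf5 and Mycn varied most, by 2.5, 2.78 and 3.23 times.

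**Figure D1:**
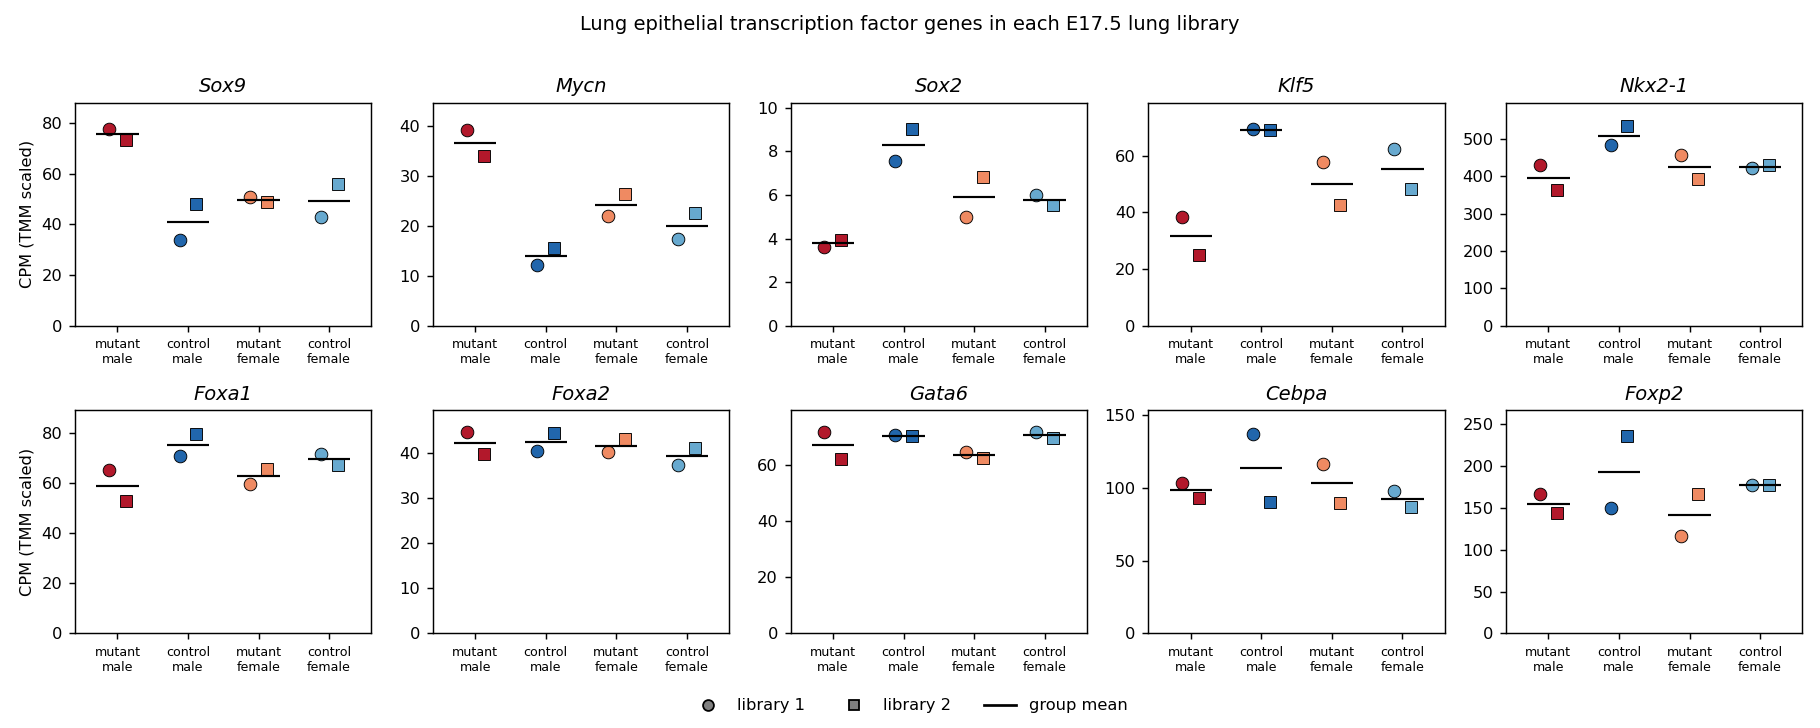
CPM of the 10 genes in each library; circles are library 1, squares library 2 and the bar is the mean of a group. Mutant males stand apart from control males for Sox9, Mycn, Sox2 and Klf5, and the groups of females lie closer together; axes start at 0 and differ between panels.

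The first comparison asked what the active receptor changed in males. The distal factors Mycn and Sox9 were higher in mutant males and Sox2 and Klf5 were lower, by factors of about 1.85 to 2.63, while Foxa2 and Gata6 were at nearly the same level. Mycn was the one gene of the 10 that passed the test at an adjusted p under 0.05, where 1.29% of all genes tested passed, 0.259% upward and 1.04% downward. With the replicate number as a block 5 of the 10 passed, Mycn, Sox9, Sox2, Klf5 and Nkx2-1, where 16.7% of all genes did. Over all genes the 235 calls in males fell to 0 without mutant male 1, 0 without mutant male 2, 5 without control male 1 and 120 without control male 2. Of the 10 genes, 6 had mutant and control males that did not overlap, as did 52.4% of all genes.

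Mycn (ENSMUSG00000037169, chr12:12936093-12941914 on the minus strand, GRCm38) encodes the MYC family protein that keeps distal progenitors dividing. It stood at 39.1 and 33.9 CPM in mutant males 1 and 2, against 12.1 and 15.6 CPM in control males 1 and 2. Both mutant males were above every other library of the study, and both control males were below every other library. Mycn rose in mutant males by 1.40 ± 0.19 on the log2 scale (SE; edgeR quasi-likelihood adjusted p = 0.0282), or 2.63-fold. This call rested on single libraries: the adjusted p was 0.0938 without mutant male 1, 0.187 without mutant male 2 and 0.159 without control male 1, with log2 changes of 1.28, 1.5 and 1.23.

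Sox9 (ENSMUSG00000000567, chr11:112782224-112787760 on the plus strand), the HMG-box factor of the distal tip, was at 77.8 and 73.3 CPM in mutant males and at 34.0 and 47.9 CPM in control males. Mutant males were again above all other libraries, but control male 2 lay within the range of the females. The log2 change was 0.88 ± 0.18 (SE; edgeR quasi-likelihood adjusted p = 0.0578, and 0.00111 with the replicate block). The adjusted p was 0.166 without mutant male 1, 0.272 without mutant male 2, 0.303 without control male 1 and 0.0498 without control male 2, with log2 changes of 0.84, 0.93, 0.66 and 1.15.

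Sox2 (ENSMUSG00000074637, chr3:34650405-34652461 on the plus strand), the HMG-box factor of the airway epithelium, had few reads: 67 and 81 in mutant males, against 136 and 163 in control males. Scaled to library size these were 3.61 and 3.96 CPM in mutant males and 7.57 and 9.03 CPM in control males. No mutant male library reached any other library of the study. The log2 change was -1.13 ± 0.22 (SE; edgeR quasi-likelihood adjusted p = 0.0523, and 0.00263 with the replicate block). The gene lies inside the long noncoding gene Sox2ot on the same strand, with 0 shared exon bases.

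Klf5 (ENSMUSG00000005148, chr14:99298691-99315036 on the plus strand), a zinc-finger factor of the maturing epithelium, was at 38.2 and 24.9 CPM in mutant males and at 69.2 and 69.0 CPM in control males. The mutant males were the lowest libraries of the 8 and the control males the highest. Its log2 change was -1.13 ± 0.22 (SE; edgeR quasi-likelihood adjusted p = 0.0538, and 0.000133 with the replicate block). With 1 male library left out, the adjusted p was 0.154 to 0.276 for Sox2 and 0.0834 to 0.299 for Klf5, with log2 changes of -1.25 to -0.999 and -1.48 to -0.85. With 1 mutant female left out both lay between 0.0466 and 0.0476, and with 1 control female left out between 0.0547 and 0.0645. In an edgeR quasi-likelihood fit of the 4 male libraries alone, Sox9, Sox2 and Klf5 passed with adjusted p = 0.0441, 0.0467 and 0.0313. That fit called more genes in all, 422 against 235 in the fit of all libraries.

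The factors that define the whole lung epithelium differed less. Nkx2-1 (ENSMUSG00000001496, chr12:56531958-56536908 on the minus strand) was at 430 and 363 CPM in mutant males, against 483 and 534 CPM in control males. The groups did not overlap, and the log2 change was -0.36 ± 0.13 (SE; edgeR quasi-likelihood adjusted p = 0.184, or 0.0346 with the replicate block). Foxa1 (ENSMUSG00000035451, chr12:57540628-57546916 on the minus strand) was at 65.2 and 53.0 CPM in mutant males and at 70.9 and 79.8 CPM in control males, also without overlap. Its log2 change was -0.35 ± 0.13 (SE; adjusted p = 0.199, and 0.0554 with the block).

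Foxa2 (ENSMUSG00000037025, chr2:148042877-148046969 on the minus strand), the paralogue of Foxa1, was at 44.6 and 39.8 CPM in mutant males and at 40.4 and 44.4 CPM in control males. The log2 change was -0.01 ± 0.12 (SE). Gata6 (ENSMUSG00000005836, on chromosome 18) was at 71.9 and 62.4 CPM in mutant males and at 70.6 and 70.4 CPM in control males, a log2 change of -0.07 ± 0.10 (SE). In both genes the libraries of mutant and control males were interleaved.

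Cebpa (ENSMUSG00000034957, chr7:35119293-35121928 on the plus strand), a leucine-zipper factor of alveolar maturation, was at 104 and 93.4 CPM in mutant males and at 137 and 90.6 CPM in control males. Foxp2 (ENSMUSG00000029563, chr6:14901349-15441977 on the plus strand), the forkhead repressor, was at 166 and 144 CPM in mutant males and at 150 and 237 CPM in control males. Both mutant males lay between the control males for Cebpa, and for Foxp2 mutant male 1 did and mutant male 2 was the lower. The log2 changes were -0.21 ± 0.20 for Cebpa and -0.31 ± 0.23 for Foxp2 (SE). Cebpa shares 51 exon bases with the antisense gene Gm45091, and Gata6 shares 93 with 1010001N08Rik. The sources used here do not say whether counting used strand, so reads of these partners may not be told apart.

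The promoters of Mycn, which was higher in mutant males, of Sox2, which was lower, and of the abundant Nkx2-1 are shown for their SMAD boxes, the short motif that binds the SMAD proteins of the TGF-β pathway. Each window runs from 250 bases before to 50 bases after the RefSeq start (GRCm38.p6), 5′ to 3′ on the strand of the gene, and capitals mark the SMAD box CAGAC or its reverse complement GTCTG.
Mycn, chr12:12941787-12942086, minus strand: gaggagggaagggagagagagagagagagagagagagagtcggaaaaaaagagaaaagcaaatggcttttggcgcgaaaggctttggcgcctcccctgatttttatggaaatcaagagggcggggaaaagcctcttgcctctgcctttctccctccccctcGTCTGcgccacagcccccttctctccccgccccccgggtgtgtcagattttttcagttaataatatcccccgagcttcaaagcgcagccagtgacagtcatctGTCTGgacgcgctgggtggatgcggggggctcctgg
Sox2, chr3:34649745-34650044, plus strand: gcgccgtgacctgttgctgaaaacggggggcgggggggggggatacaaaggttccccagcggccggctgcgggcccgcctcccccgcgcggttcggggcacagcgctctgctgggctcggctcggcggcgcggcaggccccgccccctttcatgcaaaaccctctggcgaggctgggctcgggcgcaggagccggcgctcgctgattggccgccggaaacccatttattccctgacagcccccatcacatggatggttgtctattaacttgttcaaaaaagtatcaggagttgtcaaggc
Nkx2-1, chr12:56536859-56537158, minus strand: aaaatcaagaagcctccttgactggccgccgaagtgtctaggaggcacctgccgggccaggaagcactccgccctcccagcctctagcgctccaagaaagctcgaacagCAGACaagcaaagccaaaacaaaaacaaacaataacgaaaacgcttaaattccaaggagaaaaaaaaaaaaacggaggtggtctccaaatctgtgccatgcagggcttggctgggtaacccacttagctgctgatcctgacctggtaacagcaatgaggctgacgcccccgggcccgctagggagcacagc

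Mycn had 2 SMAD boxes, which begin 89 bases before and 14 bases after the start, and Nkx2-1 had 1, which begins 141 bases before it. The window of Sox2 held none, and it lies upstream of the GENCODE start of the gene. On either strand, 49.6% of 32851 RefSeq promoter windows of this length held the box, so its presence does not set a gene apart. Foxa1 and Cebpa had no box, and the first of 3 windows of Foxa2 had 1. The NKX2-1 core TCAAG, found in 40.7% of windows on either strand, occurred 2 times in the window of Nkx2-1 and 1 time each in those of Mycn and Sox2 and in the first and the third of Foxa2. A FOXA core TGTTTNC, found in 20.5% of windows, occurred among the windows searched only in that of Foxa1. No E-box CACGTG, the site of MYC proteins, was found in these windows, and 7.15% of all windows had one. Matches of letters do not show binding.

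In females, mutants and controls overlapped in 7 of the 10 genes. None of the 10, and 0 of all genes tested (0%), passed the edgeR quasi-likelihood test in females; at an unadjusted p under 0.05 the count over all genes was 290, and 14 genes (0.0771%) passed with the replicate block, none of them among the 10. Mycn was at 22.0 and 26.3 CPM in mutant females and at 17.3 and 22.5 CPM in control females. That was a log2 change of 0.28 ± 0.18 (SE), with the second control above the first mutant. Sox9 was at 50.7 and 49.0 CPM in mutant females and at 42.8 and 56.0 CPM in control females, a log2 change of 0.01 ± 0.18 (SE).

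Sox2 was at 4.99 and 6.84 CPM in mutant females and at 5.98 and 5.54 CPM in control females, and Klf5 was at 57.6 and 42.6 CPM in mutant females and at 62.2 and 48.3 CPM in control females. Their log2 changes were 0.04 ± 0.22 and -0.14 ± 0.22 (SE), and both control libraries lay between the mutant ones for Sox2. Nkx2-1 was at 456 and 392 CPM in mutant females and at 422 and 429 CPM in control females, a log2 change of -0.01 ± 0.13 (SE). The remaining log2 changes were -0.32 for Foxp2, -0.15 for Foxa1, -0.15 for Gata6, 0.08 for Foxa2 and 0.16 for Cebpa, with SEs of 0.10 to 0.23.

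Foxa1, Gata6 and Foxp2 were lower in both mutant females than in both control females. They were 3 of 10 genes, and 21.9% of all genes had females that did not overlap. Foxa1 stood at 59.9 and 65.8 CPM in mutant females and at 71.8 and 67.4 CPM in control females, so that all 4 mutant libraries were below all 4 control libraries. Over all genes, 1.74% were lower without overlap across both sexes and 3.39% did not overlap in either direction. Its log2 change over both sexes was -0.25 ± 0.10 (SE; edgeR quasi-likelihood adjusted p = 0.815).

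**Figure D2:**
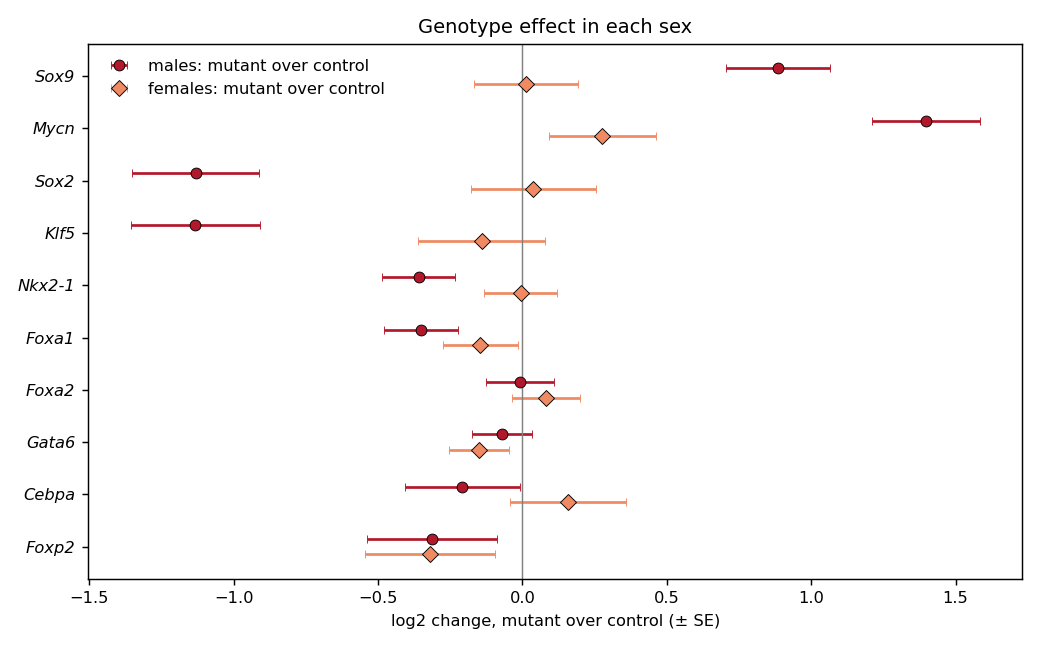
Log2 change, mutant over control, of each gene in males (circles) and in females (diamonds), with standard errors from the edgeR fit. In males Mycn and Sox9 lie to the right of 0 and Sox2 and Klf5 to the left, while in females all 10 genes lie between -0.32 and 0.28.

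Whether the genotype effect differed between the sexes was tested by the interaction, the change in males minus that in females. It was 1.12 ± 0.26 for Mycn, 0.87 ± 0.25 for Sox9, -1.17 ± 0.31 for Sox2 and -0.99 ± 0.31 for Klf5 on the log2 scale (SE). None passed in the edgeR quasi-likelihood fit (adjusted p = 0.317, 0.355, 0.340 and 0.365), where 0% of genes passed, 0 in count, against 2266 at an unadjusted p under 0.05. With the replicate block, the adjusted p was 0.00608 for Mycn, 0.0154 for Sox9, 0.0233 for Sox2 and 0.00449 for Klf5, where 9.33% of all genes passed. DESeq2 called 188 genes and edgeR's likelihood ratio test 196, and Mycn was the one of the 10 called by each, with adjusted p = 0.0359 and 0.0291. For the other 6 genes the interaction lay between -0.37 and 0.08, with SEs of 0.15 to 0.32.

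The sexes were also compared within each genotype, males over females. Among mutants, Sox9 and Mycn were higher in both males than in both females, and Sox2 and Klf5 were lower. The log2 differences were 0.60 ± 0.18 for Sox9, 0.60 ± 0.18 for Mycn, -0.64 ± 0.22 for Sox2 and -0.67 ± 0.22 for Klf5 (SE). Of all genes, 31.6% did not overlap between mutant males and mutant females. None of the 4 passed in the edgeR quasi-likelihood fit, where 0.0385% of genes did. With the replicate block Sox9 (adjusted p = 0.0465) and Klf5 (adjusted p = 0.0197) passed, where 1.81% of all genes did.

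Between the controls the differences of these 4 genes had the opposite sign. The log2 difference was -0.52 ± 0.19 for Mycn, -0.27 ± 0.18 for Sox9, 0.53 ± 0.21 for Sox2 and 0.32 ± 0.22 for Klf5 (SE). None passed with or without the block, where 3.88% and 0.0385% of all genes did. Of the 4, Mycn, Sox2 and Klf5 did not overlap between control males and control females, as 43.9% of all genes did not. Control males are in both this comparison and that of genotype in males, so the 2 share libraries.

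**Figure D3:**
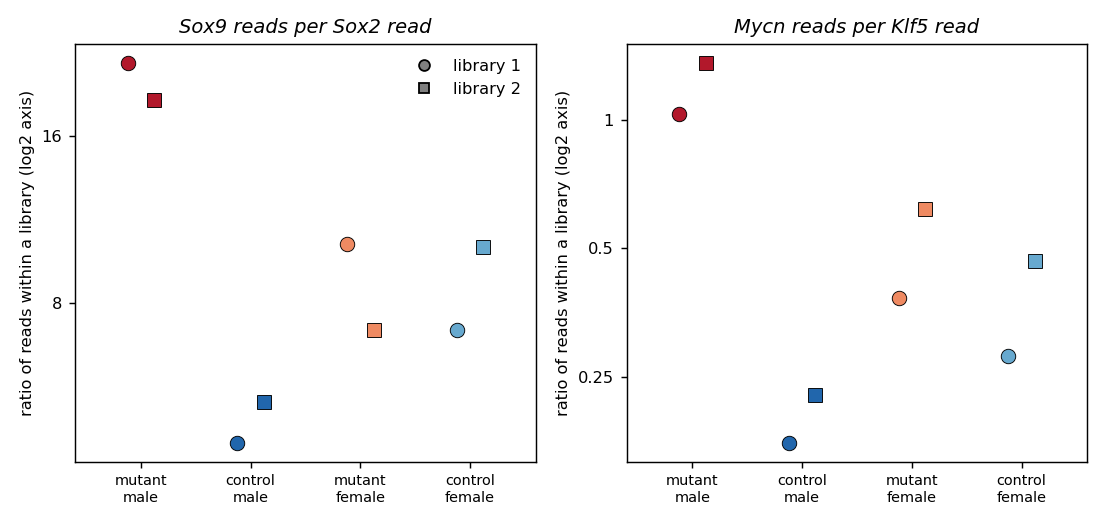
Ratio of reads within a library, Sox9 over Sox2 (left) and Mycn over Klf5 (right), on log2 axes; circles are library 1 and squares library 2. Mutant males are highest and control males lowest in both ratios, with both groups of females between them and overlapping each other.

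Ratios of reads between a pair of genes within a library do not depend on the scaling between libraries. They were chosen after the values were seen and are given as a description. Sox9 had 21.6 and 18.5 reads per Sox2 read in mutant males and 4.49 and 5.31 in control males. In females the ratio was 10.2 and 7.16 in mutants and 7.15 and 10.1 in controls. Mycn had 1.03 and 1.36 reads per Klf5 read in mutant males, and 0.175 and 0.226 in control males. It had 0.382 and 0.618 in mutant females and 0.279 and 0.466 in control females. In both ratios mutant and control males lay at opposite ends of the 8 libraries. Foxa1 had 1.46 and 1.33 reads per Foxa2 read in mutant males and 1.75 and 1.80 in control males. In females it had 1.49 and 1.53 in mutants and 1.91 and 1.64 in controls. Every mutant library was thus below every control library in this ratio. The CPM of Foxa1 alone also separated every mutant from every control library. What share of gene pairs does so was not counted.

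Over both sexes together none of the 10 genes passed in the edgeR quasi-likelihood fit, where 0% of all genes did, 0 in count, against 1061 at an unadjusted p under 0.05. Mycn had a log2 change of 0.84 ± 0.23 (SE; adjusted p = 0.648), Klf5 of -0.64 ± 0.23, Sox2 of -0.54 ± 0.25 and Sox9 of 0.45 ± 0.19. In the authors' deposited table, mutant against control, Mycn had a log2 change of 0.88 with a false discovery rate of 6.92e-07, Klf5 -0.63 with 1.66e-05 and Sox9 0.50 with 0.0149. These 3 were the genes of the 10 under 0.05 in the authors' deposited table, where 4.05% of its 19150 genes were.

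The factors were next scaled to the RNA of the epithelium itself, taken as 29 genes of epithelial cells in general. These genes had a median log2 change of -0.34 in males, with 23 of 29 negative and 1, Krt8, called lower (0 called without any 1 of the 4 male libraries), against 0.01 over all genes. On that scale the median of all genes in males lay at 0.35. Every gene of a library is scaled by the same factor, so all changes shifted by nearly the same amount. Mycn was at 1.72 and Sox9 at 1.22 on the log2 scale (edgeR quasi-likelihood adjusted p = 0.0133 and 0.0328). Klf5 was at -0.83 and Sox2 at -0.79 (adjusted p = 0.0461 and 0.0886). How many of all genes passed on this scale was not counted, so these p-values have no share of all genes to be read against. Nkx2-1 and Foxa1 were then at -0.04 and -0.03, against -0.36 and -0.35 with all genes as the scale. Foxa2, Gata6, Cebpa and Foxp2 changed sign, to 0.32, 0.26, 0.12 and 0.01. The 29 genes did not move together: with all genes as the scale, Epcam was at 0.54 ± 0.14 (adjusted p = 0.108, and 0.00657 with the block) and Cdh1, the epithelial cadherin, at -0.63 ± 0.13 (adjusted p = 0.0617, and 0.000682 with the block; SE, log2 change in males). With the block 15 of the 29 were lower and 2 higher, where 16.7% of all genes passed. Cdh1, one of the 29, was also among the named genes that followed Klf5 most closely over the 8 libraries (Pearson r = 0.99).

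**Figure D4:**
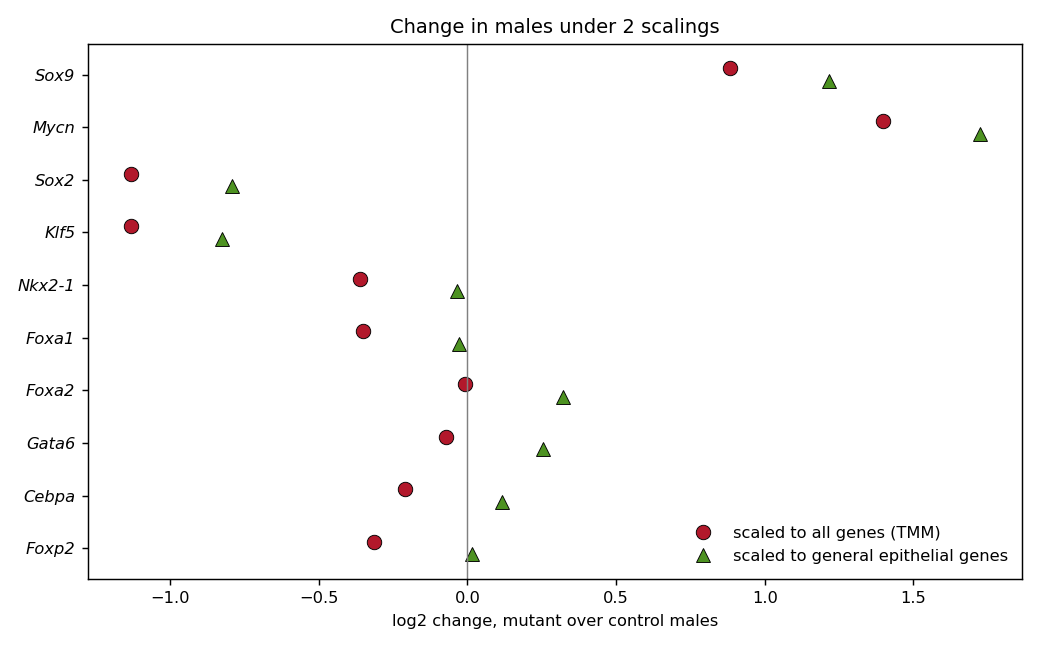
Log2 change in males, mutant over control, of each gene with the libraries scaled to all genes (circles) and to 29 general epithelial genes (triangles). The second scaling shifts all genes by nearly the same amount. Mycn, Sox9, Sox2 and Klf5 therefore keep their direction, and Nkx2-1 and Foxa1 move from -0.36 and -0.35 to near 0.

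Other transcription factors of the lung epithelium were read from a list of 53, all tested. In males 1 of the 53 (1.89%) fell and 0 rose, where 1.29% of all genes passed, with a median log2 change of -0.22 and 38 of 53 negative, against a median of 0.01 over all genes. The one that fell was Foxj1, the master factor of motile cilia, at 26.8 and 22.7 CPM in mutant males and at 63.1 and 63.5 CPM in control males. Its log2 change was -1.35 ± 0.17 (SE; edgeR quasi-likelihood adjusted p = 0.0270). With the replicate block 19 of the 53 were lower and 4 higher at an adjusted p under 0.05, where 16.7% of all genes passed. Without mutant male 1, mutant male 2 or control male 1, 0 of the 53 passed.

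The other named members of that list did not pass. Etv4, a target of FGF signalling at the distal tip, was at 12.5 and 12.8 CPM in mutant males and at 3.90 and 6.43 CPM in control males, a log2 change of 1.29 ± 0.26 (SE; adjusted p = 0.0558, and 0.000951 with the block). Tfcp2l1, a grainyhead-like factor, was at 25.6 and 21.9 CPM in mutant males and at 92.1 and 52.8 CPM in control males, a log2 change of -1.61 ± 0.33 (SE; adjusted p = 0.0576, and 1.52e-05 with the block). Isl1, a LIM homeodomain factor of low abundance here, was at 1.40 and 0.98 CPM in mutant males and at 0.22 and 0.22 CPM in control males (adjusted p = 0.0635, and 0.0069 with the block). Foxp1 and Foxp4, the partners of Foxp2, had log2 changes in males of -0.05 ± 0.13 and -0.22 ± 0.13 (SE). In females the median of the 53 was 0.01, and 0 passed.

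**Figure D5:**
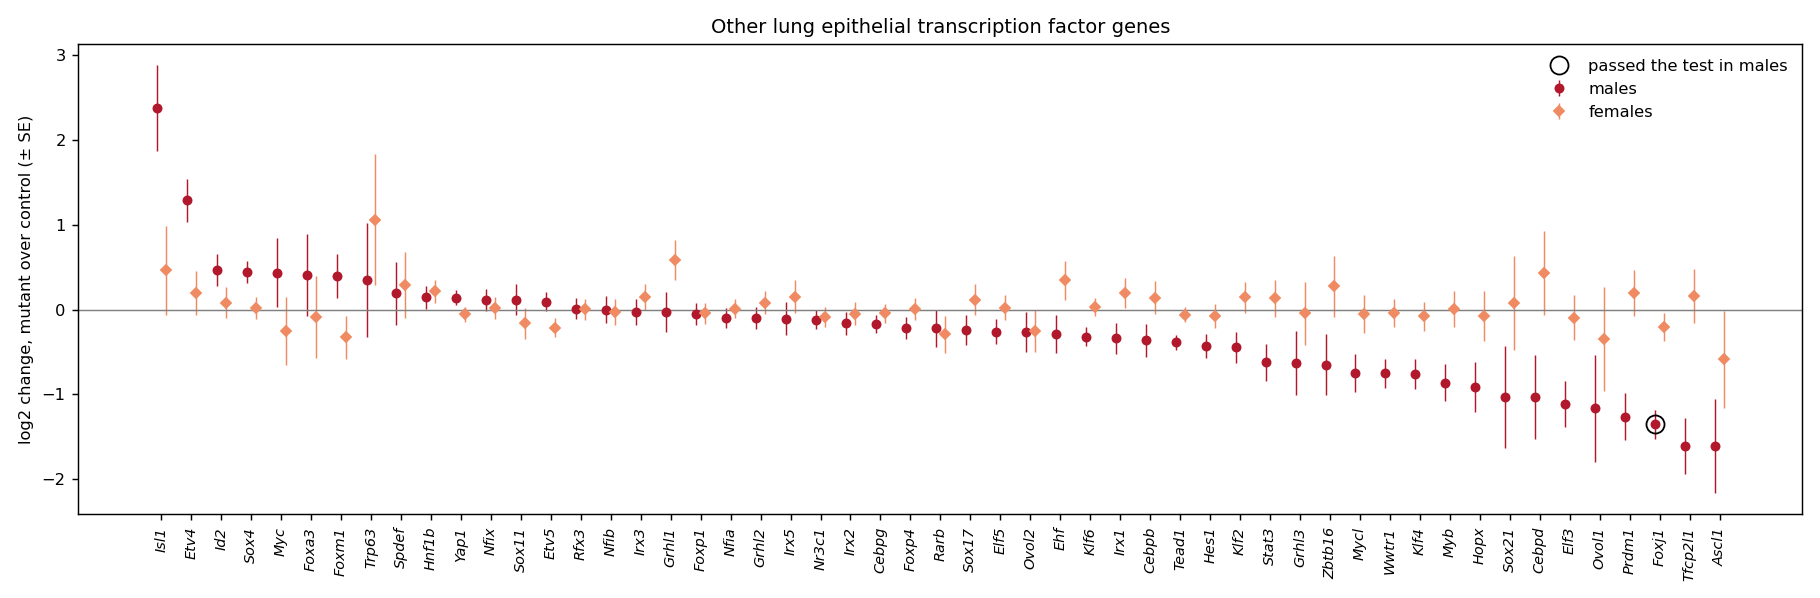
Log2 change, mutant over control, with standard errors, of 53 other epithelial transcription factor genes in males (circles) and females (diamonds), ordered by the change in males. Foxj1, ringed, is the one that passed the test in males.

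Other genes of the distal tip were evenly split in direction. Of 16 further distal tip genes, 0 rose and 1 fell (6.25%) in males, where 1.29% of all genes passed, and 8 were positive and 8 negative, with a median log2 change of 0.00. Cpm, a carboxypeptidase of the alveolar epithelium, was the one that fell, by 1.38 ± 0.24 on the log2 scale (SE; edgeR quasi-likelihood adjusted p = 0.0392), a call that was lost without any 1 of the 4 male libraries. Clu, the secreted chaperone clusterin, was at 253 and 243 CPM in mutant males and at 75.4 and 134 CPM in control males (log2 change 1.24 ± 0.28, SE; adjusted p = 0.0709, and 0.000350 with the block). Fgfr2, the receptor through which FGF10 acts on the tip, had a log2 change of -0.45 ± 0.12 (SE; adjusted p = 0.109, and 0.00371 with the block). Etv5, a further FGF target, had one of 0.09 ± 0.11 (SE). Id2, an inhibitor of DNA binding in tip cells, stood at 0.47 ± 0.19 (SE). With the replicate block 4 of the 16 were higher and 3 lower, where 16.7% of all genes passed.

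Genes of other cells that use these factors were read beside them. Of the cartilage genes, read beside Sox9, 2 of 11 tested rose in males, where 0.259% of all genes did: Col9a1 by 1.77 ± 0.25 and Col9a3 by 1.87 ± 0.34 on the log2 scale (SE; edgeR quasi-likelihood adjusted p = 0.0284 and 0.0449), and the median of the list was 1.02. With the replicate block 5 were higher and 1 lower, where 16.7% of all genes passed. None of the 11 passed without mutant male 1, mutant male 2 or control male 1. Summed over the list, cartilage genes stood at 311 and 315 CPM in mutant males, 263 and 274 in control males, 245 and 284 in mutant females and 267 and 307 in control females. The defining cartilage genes were low: Col2a1 had 9 to 103 reads in a library and Acan 2 to 10. Their part in the level of Sox9 was not tested.

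Genes of dividing cells were higher in mutant males in all 20 of 20 cases, with a median log2 change of 0.67; 0 passed the edgeR quasi-likelihood test and 19 did with the replicate block, where 1.29% and 16.7% of all genes passed. In females 0 of 20 were positive, with a median of -0.35. Their summed level was 3073 and 4181 CPM in mutant males, 1888 and 2609 in control males, 2063 and 3648 in mutant females and 3035 and 4254 in control females. The part of dividing cells in the level of Mycn was not tested.

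With the replicate block 17 of 19 ciliated cell genes, read beside Sox2, were lower in males, where 1712 of all 18164 genes tested were lower. Without the block 6 of 19 were lower, Foxj1 of the list of 53 among them, where 1.04% of all genes fell. Their median log2 change was -1.06, and this count was 0 without mutant male 1, mutant male 2 or control male 1 and 2 without control male 2. Their sum was 471 and 484 CPM in mutant males, 716 and 731 in control males, 592 and 668 in mutant females and 679 and 579 in control females, and their part in the level of Sox2 was not tested. Some markers of club and alveolar cells were lower in males as well. These were 7 of 12 club cell genes (median log2 change -2.39), 6 of 19 type 1 alveolar genes (median -1.14) and 3 of 21 type 2 alveolar genes (median -0.88). With the replicate block the counts were 10, 16 and 17 lower, with 1 type 1 gene higher. Of all 18164 genes tested, 1712 were lower and 1326 higher with the block. Without mutant male 1 or mutant male 2 none of these lists had a call, and without control male 1 only 1 club cell gene did; without control male 2 the type 2 count was 5. Club cell genes summed to 353 and 254 CPM in mutant males, 1678 and 1234 in control males, 712 and 782 in mutant females and 1191 and 605 in control females. In females the median log2 changes were -0.23 for club, -0.04 for type 1 and 0.16 for type 2 genes. Between controls, males over females, the medians were 0.56, 0.48 and 0.51. With the block 5, 13 and 9 genes of these lists were higher in control males, where 348 of all 18164 genes tested were higher. Of 8 basal cell genes 1 rose, Krt17, and 1 fell, Krt15, in males, with a median log2 change of -0.16, where 1.29% of all genes passed. Krt15 is also in the club cell list. Among neuroendocrine genes 0 of 7 passed, with a median of -1.39. With the replicate block 1 gene was higher and 3 were lower in males in each of these lists, where 16.7% of all genes passed. Krt17 had log2 changes of 6.22 ± 0.86 in males and 4.82 ± 0.82 in females (SE), with 1 to 3 reads in each control library. In females it passed with the block only (edgeR quasi-likelihood adjusted p = 0.0027), where 0.0771% of all genes did. The part of any of these cells in the levels of the 10 factors was not tested. Nerve and glial genes had 0 of 10 called and a sum of 211 and 162 CPM in mutant males and 204 and 217 in control males. Macrophage genes, beside Cebpa, had 0 of 14 called and a sum of 288 and 265 CPM in mutant males and 299 and 224 in control males. Of all genes, 1.29% passed. With the replicate block 0 nerve and glial genes passed, and 1 macrophage gene, Cebpb, was lower (edgeR quasi-likelihood adjusted p = 0.023), where 16.7% of all genes passed. Beside Gata6, 1 of 12 smooth muscle genes (median log2 change -0.44) and 1 of 10 heart muscle genes (median -0.06) fell in males. Of 12 endothelial genes 0 were called (median -0.15). With the replicate block 5, 2 and 2 genes of these lists were lower, where 1712 of all 18164 genes tested were lower. The part of these cells in the level of Gata6 was not tested. Of the 7 thyroid genes, which could share Nkx2-1, Tg had 2 to 12 reads in a library and Hhex was the one tested.

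The genes whose log2 CPM followed each factor most closely over the 8 libraries were looked up among 12792 genes. Unnamed predicted genes, which that number includes, were passed over, and the genes with the 3 highest of the other correlations are given. The libraries share depth, genotype and sex, and no test was made. Klf5 was followed by Elf3, an ETS factor of epithelia (Pearson r = 0.99, Spearman rho = 0.98), by AA986860 and by Cdh1. Sox2 was followed by Kif27 and Spag17, both genes of motile cilia (r = 0.97 each, rho = 0.95 each), and by Cltb, a clathrin light chain. Mycn was followed by Ntm, Adamts6 and Ptch1, the hedgehog receptor (r = 0.98 to 0.99, rho = 0.98 to 1.00), and Sox9 by Pkp4, Ptpdc1 and Cd276 (r = 0.99 each, rho = 0.95 to 1.00).

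Cebpa was followed by Lcn2, Lyz2 and Anpep (r = 0.97 to 0.98, rho = 0.88 to 0.98), of which Lyz2 encodes the lysozyme of macrophages and type 2 cells. Nkx2-1 was followed by Plekhg5, Arhgef2 and Hid1 (r = 0.98 to 0.99), Foxa1 by Abr, Plekhj1 and Tmem108 (r = 0.96 to 0.97), and Foxp2 by Lgals12, Prelid1 and Palm3 (r = 0.95 to 0.96). The closest genes to Foxa2 were Apopt1, Fam89a and Mical3 (r = 0.90 to 0.96), and those to Gata6 were Mkrn2, Phf13 and Zfp341 (r = 0.87 to 0.92). Foxa2 and Gata6 varied least among the 10 over the libraries.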

How the data were processed

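RNA was measured in 8 libraries of E17.5 mouse lung. Groups came from the labels, and the 10 genes from their symbols. The authors' single table has 19150 genes. Its deposited columns are raw read counts, RPKM values and gene lengths, per the file headers. The authors' own comparison is there too, deposited as log2 values, a likelihood ratio score, and a p-value with its false discovery rate. Tools named in the submitters' processing notes are STAR 2.5.2b, HTSeq 0.6.1p2, edgeR 3.16.5, Trimmomatic 0.35 and cutadapt 1.13. The sources used here give no genome build, no use of strand and no terms of the authors' model.

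Counts were tested here with edgeR 4.0.16 in R 4.3.3: TMM scaling, filterByExpr with a minimum count of 10, quasi-likelihood F tests (two-sided) and Benjamini-Hochberg adjustment over 18164 genes at 0.05. The 4 groups had a mean each, and for effects over both sexes genotype and sex were added as terms. With 17561012 to 20243205 reads per library, a gene such as Sox2 rests on 67 to 163 reads in a library. The script was run on simulated counts, drawn independently between libraries. These lack the shared deviation of libraries with the same number, so that run does not bear on how far the calls hold. Coordinates come from GENCODE M21 (GRCm38), matched by Ensembl ID, and promoters from RefSeq (GRCm38.p6), which had entries for Nkx2-1, Foxa1, Foxa2, Sox2, Mycn and Cebpa among those used.

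The genes and 25 lists of cell type and pathway genes (373 of 435 symbols found) were chosen with earlier results of these data known. Named genes are the 10, up to 4 others per list with the smallest p in males and the 3 genes most correlated with each of the 10. Unnamed predicted genes were passed over among the correlated genes. Etv5, Id2, Foxp1, Foxp4, Epcam, Sftpc, Col2a1, Acan and Tg fall outside these rules, and their choice followed a look at their values. The labels' replicate numbers were checked as pairs: deviations from group means correlated at 0.180 to 0.626 over 12793 genes in the 6 pairs of groups, all above 0.1. Alternatives were size factors of DESeq2, no filter, DESeq2 1.42.0, limma-voom 3.58.1, edgeR's likelihood ratio test, the replicate block, leaving out each library, single-sex fits, no sex term and scaling to epithelial genes. Levels per merged exon were added after seeing the data.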

Additional observations from a re-analysis of the deposited data

How the results depend on the processing

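With 2 libraries per group the calls depend on the estimate of the spread, and with 1 library left out a lone sample is assumed to vary like the others. In males the 235 genes called (1 of the 10) became 245 (2) with DESeq2 size factors, 855 (4) with DESeq2, 1096 (4) with edgeR's likelihood ratio test, 422 (4) in male libraries alone, 3038 (5) with the replicate block, and 0 to 245 (0 to 3 of the 10) with 1 library left out. In females DESeq2 called 6 genes, the likelihood ratio test 8 and the replicate block 14. Over both sexes the count was 2 with DESeq2 size factors, 2 with no filter, 88 with DESeq2, 79 with the likelihood ratio test, 3 with the replicate block, 3 with no sex term, 775 (3 of the 10) in the authors' deposited table and 0 to 3 with 1 library left out. For the interaction it was 188 (1 of the 10) with DESeq2, 196 (1) with the likelihood ratio test, 1695 (4) with the replicate block and 0 to 1 with 1 library left out. The sex effect in controls gave 19 genes with the likelihood ratio test and 704 with the replicate block; that in mutants gave 80 with DESeq2, 90 with the likelihood ratio test, 329 (2 of the 10) with the replicate block and 5 to 11 with 1 library left out. The replicate block changed no call of the 10 other than those given above.

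In the list of 53 factors 11 genes passed with DESeq2 in males, as did 4 of the distal tip list and 11 of the general epithelial list. Per kilobase of merged exons the levels moved to 38.7 for Cebpa, 17.47 for Foxa2, 10.2 for Foxp2, 10.5 for Gata6, 9.90 for Klf5, 7.16 for Mycn and 154 for Nkx2-1. Scaling to epithelial genes turned the sign in males for Foxa2 (0.32), Gata6 (0.26), Cebpa (0.12) and Foxp2 (0.0149), in females for Nkx2-1 (0.0144), and over both sexes for Gata6 (0.0653) and Cebpa (0.15), all on the log2 scale; none was called. Leaving out 1 library also turned the sign of small, uncalled log2 changes. In males these ran from -0.0977 to 0.074 for Foxa2, -0.18 to 0.0286 for Gata6, -0.48 to 0.12 for Cebpa and -0.61 to 0.0536 for Foxp2. In females they ran from -0.12 to 0.10 for Nkx2-1, -0.17 to 0.22 for Sox9, -0.21 to 0.24 for Sox2, -0.047 to 0.34 for Cebpa and -0.38 to 0.0596 for Klf5, and over both sexes from -0.14 to 0.14 for Cebpa. The interaction ran from -0.0255 to 0.18 for Gata6 and -0.28 to 0.38 for Foxp2. The sex effect in controls ran from -0.0279 to 0.0116 for Gata6, -0.0354 to 0.57 for Cebpa and -0.25 to 0.41 for Foxp2. That in mutants ran from -0.23 to 0.0193 for Nkx2-1, -0.26 to 0.0523 for Foxa1, -0.077 to 0.10 for Foxa2, -0.0406 to 0.17 for Gata6, -0.25 to 0.14 for Cebpa and -0.11 to 0.41 for Foxp2. The cause of these shifts was not tested.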
